A study of Mus musculus with 6 samples.

Results

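The let-7 guide strands of mouse primary oligodendrocytes were compared between extracellular vesicles (EVs) collected from the culture medium and the cells themselves. The members were the 10 rows let-7a-5p, let-7b-5p, let-7c-5p, let-7d-5p, let-7e-5p, let-7f-5p, let-7g-5p, let-7i-5p, let-7k and miR-98-5p, taken by name from read count tables of 1906 mature miRNAs each. Counts came from small RNA sequencing of 3 EV libraries and 3 cell libraries. EVs were the pellet of a 100000 g spin of medium conditioned for 24 h by cultures 5 to 6 days in vitro. Whole cells were lysed after 6 days in vitro. The strain was C57BL/6N throughout and the donor embryos were at embryonic day 14. Cultures were grown first in Sato medium with 1% horse serum and then, for the collection, without serum but with the supplement B27. By its title, the study asked whether such supplements bring miRNAs that are isolated together with EVs. A library of medium alone was not analysed here, and a pellet of this kind also holds particles that are not vesicles, so the comparison gives the make-up of the pellet against that of the cells and not the origin of any read. No label states that the replicates are independent cultures, and the p-values therefore describe the spread among these samples, which may be technical.

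let-7 was discovered in Caenorhabditis elegans as a gene that times the passage from larva to adult. In vertebrates it is a family of nearly identical miRNAs that are held back in stem and progenitor cells by the RNA-binding protein LIN28, which binds their precursors, and that build up as cells differentiate. Each hairpin precursor gives a guide strand, which is loaded into an Argonaute protein and recognises target mRNAs mainly through its seed, and a passenger strand, which is mostly discarded. In the nervous system let-7 promotes the exit of neural progenitors from the cell cycle, and let-7b is known in mouse to act outside the cell as a ligand of Toll-like receptor 7.

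The guide strands are printed here because the members differ from each other by few bases, and any split of reads between them rests on those bases. Sequences are from RefSeq (GRCm38.p6), 5′ to 3′, and the capitals mark the seed, bases 2 to 8.
let-7a-5p: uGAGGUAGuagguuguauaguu
let-7f-5p: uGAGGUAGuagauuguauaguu
let-7d-5p: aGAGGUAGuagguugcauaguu
let-7e-5p: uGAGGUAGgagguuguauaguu
let-7c-5p: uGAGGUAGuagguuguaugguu
let-7b-5p: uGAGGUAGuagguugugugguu
miR-98-5p: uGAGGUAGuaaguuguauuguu
let-7g-5p: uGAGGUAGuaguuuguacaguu
let-7i-5p: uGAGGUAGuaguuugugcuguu
let-7k: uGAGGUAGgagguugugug

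All 10 members had the same seed. A further 1 row of the tables, miR-1961, has this seed in RefSeq and held 0 reads in all 6 libraries, which allows up to 4.35 to 9.56 CPM (reads scaled to the library's total) in EVs, depending on the library, and 14.8 to 23.6 CPM in cells. The members differ in the rest of the strand. Counted from the 5′ end, and with the base of let-7a-5p given before that of the member, let-7c-5p carries A19G, let-7f-5p G12A, let-7e-5p U9G, let-7b-5p A17G and A19G, let-7d-5p U1A and U16C, let-7g-5p G12U and U18C, miR-98-5p G11A and A19U, and let-7i-5p G12U, A17G, U18C and A19U. let-7k is 19 bases long and the other 9 members are 22 bases long. Of the 45 pairs of members, 4 of equal length differ by a single base (let-7a-5p with let-7c-5p, let-7e-5p or let-7f-5p, and let-7b-5p with let-7c-5p). The shorter let-7k carries U9G, A17G and A19G, and over its 19 bases it also differs from let-7b-5p by 1 base. The rule by which the authors placed reads that match several genomic copies is not given in the sources used here, so reads could have moved between such members.

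Total counts were 313766 to 689475 in the EV libraries and 126910 to 202358 in the cell libraries, so EV values rest on more reads. All 5 oligodendrocyte miRNAs checked (miR-219a-5p, miR-219a-2-3p, miR-338-3p, miR-338-5p and miR-138-5p) were present in the cells, with a summed level of 33557 to 36111 CPM over the EV libraries and 33961 to 43435 CPM over the cell libraries. Of the 5, 2 were called higher in EVs and 3 lower. Marker sums of other cell types moved with the comparison. The 3 neuronal miRNAs summed to between 89590 and 118690 CPM in EVs, against between 35923 and 50823 CPM in cells, with 3 of 3 called higher. The 3 red cell miRNAs summed to between 3944 and 7835 CPM in EVs, against between 212 and 256 CPM in cells, with 2 of 2 tested called higher. The liver miRNA miR-122-5p lay between 4194 and 8317 CPM in EVs, against between 24.7 and 47.3 CPM in cells. The 4 mesenchymal miRNAs summed to between 2473 and 4807 CPM in EVs, against between 362 and 1037 CPM in cells, with 3 of 3 tested called higher. The 5 myeloid miRNAs summed to between 612 and 1936 CPM in EVs, against between 1592 and 4566 CPM in cells, with 4 of 5 called lower. No marker was at 0 over the 6 libraries. The part of these other cell types and of other sources in the let-7 values was not tested.

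As a whole the family took a smaller share of the miRNA counts in EVs. It held 10.5%, 9.71% and 13.6% of counts in EV replicates 1, 2 and 3, and 21.7%, 21.3% and 21.1% in cell replicates 1, 2 and 3. The groups did not overlap, and the EV libraries were spread more widely than the cell libraries. The mean was 11.3% ± 2.07 in EVs and 21.4% ± 0.33 in cells (SD, n = 3 each), a difference of -10.1 percentage points (exact permutation p = 0.1, two-sided, the smallest that 3 against 3 allows). With miR-9-5p, which took 8.85% to 12.5% of counts in EVs and 16.6% to 19.3% in cells, taken out of the total, the family held 12.5% ± 2.10 in EVs and 26.0% ± 0.83 in cells (SD, n = 3 each). Without let-7g-5p, the other 9 members made up 9.61% ± 1.84 in EVs and 20.1% ± 0.61 in cells. In the fit of all miRNAs with the 10 members as a single summed row, the log2 fold change of the sum was -1.44 (SE 0.15; edgeR quasi-likelihood test with BH adjustment over 327 rows, adjusted p = 0.000123). A share of counts in bulk libraries cannot tell fewer let-7 molecules from more molecules of other miRNAs, nor fewer cells of a type from less RNA per cell.

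**Figure D1:**
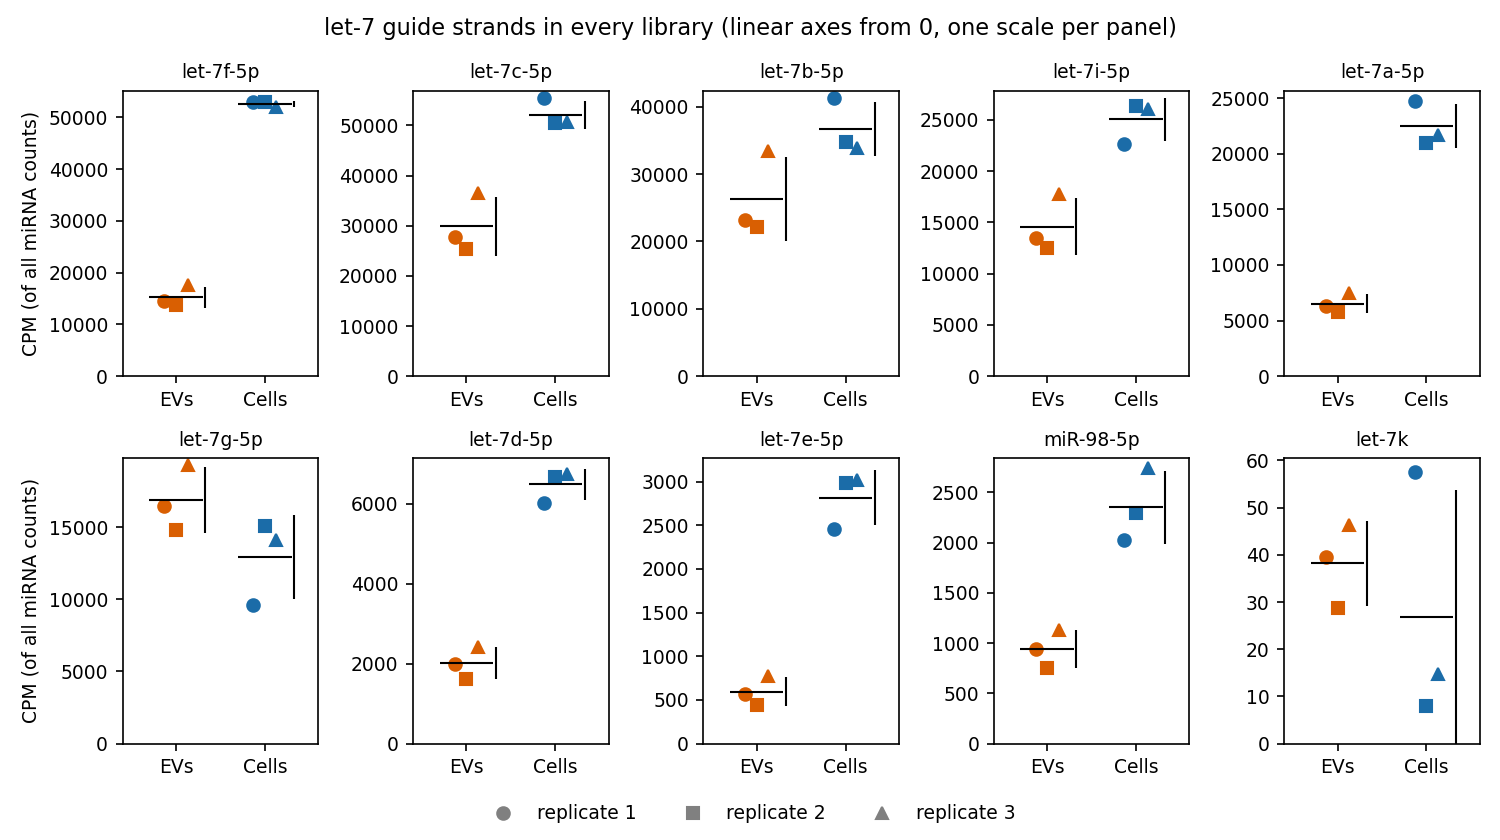
CPM of each let-7 guide strand (y axis, linear, from 0, with its own scale per panel) in the 3 EV libraries (orange, left) and the 3 cell libraries (blue, right). Symbols give the replicate, horizontal lines the mean and vertical lines the SD. The EV libraries lie below the cell libraries for 8 members, while the groups overlap for let-7g-5p and let-7k.

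Of the 10 members, all of which passed the filter on low counts, 8 were called lower in EVs, 0 higher and 2 were not called (edgeR quasi-likelihood test, BH adjustment over 336 miRNAs, adjusted p below 0.05, trimmed mean of M-values (TMM) scaling). At an unadjusted p below 0.05 and with DESeq2 the number called higher was also 0. Over all 336 miRNAs tested, 28.9% were called lower and 28.6% higher, 57.4% in either direction. The median log2 fold change of the members was -1.54, against 0.06 for all miRNAs tested. Scaling shifted all values. When library size alone was used, the median of all miRNAs moved by 0.48 to 0.54 and that of the members to -1.06. Under that scaling 8 members were again called lower and 0 higher, where 17.9% of all tested miRNAs were called lower and 44% higher, 61.9% in either direction. The CPM values, which carry no scaling factor, had every EV library below every cell library for the same 8 members, as for 20.2% of all tested miRNAs.

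let-7e-5p, the guide strand from the miR-99b and miR-125a cluster, was the most reduced member. It stood at 566, 443 and 777 CPM in EV replicates 1 to 3 and at 2452, 2986 and 3015 CPM in cell replicates 1 to 3. Every EV library lay far below every cell library. Its log2 fold change was -2.71 (SE 0.23, edgeR BH-adjusted p = 2.36e-05), or 0.153 times the cell level, and only 2 of the 336 tested miRNAs had a lower value.

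let-7a-5p, the most conserved member, which keeps the sequence of the worm miRNA, had 6302, 5769 and 7465 CPM in EVs and 24739, 21007 and 21674 CPM in cells. let-7f-5p, which differs from it by a single base, had 14494, 13708 and 17528 CPM in EVs and 52955, 52919 and 51952 CPM in cells. For both, every EV library lay well below every cell library. Their log2 fold changes were -2.27 (SE 0.19, edgeR BH-adjusted p = 2.36e-05) and -2.26 (SE 0.16, edgeR BH-adjusted p = 1.15e-05).

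let-7d-5p, whose gene lies beside copies of both, had 2000, 1616 and 2412 CPM in EVs and 6031, 6682 and 6746 CPM in cells. The groups did not overlap, and it fell by 2.16 (log2, SE 0.19; edgeR, BH-adjusted p = 2.36e-05). miR-98-5p, a let-7 family member despite its number, had 940, 755 and 1133 CPM in EVs and 2023, 2293 and 2743 CPM in cells. It fell by 1.79 (log2, SE 0.21; edgeR, BH-adjusted p = 0.000129), again with no overlap between the groups.

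The other members that fell did so by less. let-7c-5p, the most abundant member in EVs, had 27835, 25347 and 36470 CPM in EVs and 55394, 50406 and 50598 CPM in cells. let-7i-5p, encoded by a single gene, had 13478, 12513 and 17732 CPM in EVs and 22678, 26373 and 26097 CPM in cells. Neither showed an overlap, and EV replicate 3 was the highest EV library for both. Their log2 fold changes were -1.29 for let-7c-5p (SE 0.17, edgeR BH-adjusted p = 0.000314) and -1.25 for let-7i-5p (SE 0.16, edgeR BH-adjusted p = 0.000221). On library size alone they were -0.80 and -0.78, both still called.

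let-7b-5p had the smallest of the called changes. It stood at 23206, 22179 and 33446 CPM in EVs and at 41354, 34788 and 33945 CPM in cells, so that EV replicate 3 came close to cell replicate 3 without an overlap. Its log2 fold change was -0.97 (SE 0.20, edgeR BH-adjusted p = 0.00312), and -0.48 on library size alone (edgeR, BH-adjusted p = 0.0367).

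let-7g-5p was not called. It had 16482, 14766 and 19294 CPM in EVs and 9617, 15097 and 14094 CPM in cells. The groups overlapped, with cell replicate 2 above EV replicate 2, and cell replicate 1 was the lowest of all 6 libraries. Its log2 fold change was -0.07 (SE 0.17, edgeR BH-adjusted p = 0.752), and 0.38 on library size alone (edgeR, BH-adjusted p = 0.111), so the sign turned with the scaling and neither value was called. let-7k, a short member annotated at a single locus, rested on 17, 9 and 32 reads in EVs and 9, 1 and 3 reads in cells. That is 39.4, 28.7 and 46.4 CPM in EVs and 57.6, 7.88 and 14.8 CPM in cells, where a single read is worth 1.45 to 3.19 CPM for EVs and 4.94 to 7.88 CPM for cells. The highest of its 6 values was that of cell replicate 1, and a difference was not detectable at this depth (log2 fold change 0.04, SE 0.63, edgeR BH-adjusted p = 0.971).

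**Figure D2:**
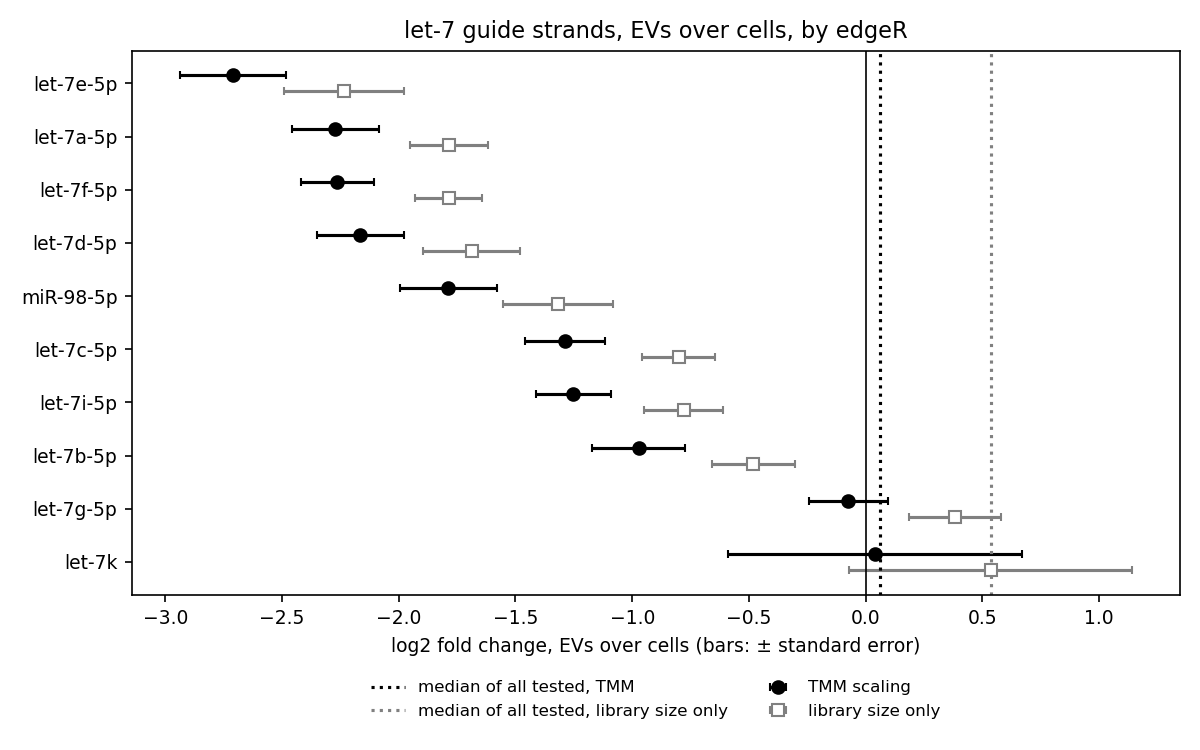
log2 fold change of EVs over cells (x axis) with its standard error for each let-7 guide strand, with TMM scaling (filled circles) and with library size only (open squares). Dotted lines are the medians of all 336 tested miRNAs, 0.06 and 0.54. The members run from let-7e-5p at -2.71 to let-7k at 0.04 with TMM scaling, and 8 of them lie left of 0 under both scalings.

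The members did not fall by the same factor, so the family had another make-up in EVs than in cells. This was tested with the family total of each library in place of the library size, which does not depend on the scaling of the other miRNAs. Of the 10 members, 4 were called lower and 3 higher relative to the family total, and 3 were not called (edgeR quasi-likelihood test, BH adjustment over 336 miRNAs). In the same fit 4.46% of all tested miRNAs were called lower and 69% higher, 73.5% in either direction, as the divisor was itself lower in EVs. The median log2 change over all tested miRNAs in this fit was 1.46. For each of the 10 members the share of the family did not overlap between EVs and cells. Counts over the same family total did so for 5.95% of tested miRNAs in the direction below cells and 72.3% in the direction above. The shares of the members sum to a fixed total, so a loss in some forces a gain in others. The tested miRNAs outside the family are not bound in this way. The exact permutation p was 0.1 for every member, also after BH adjustment over the 10.

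let-7g-5p gained most in share, counted in percentage points. It made up 15.6%, 15.2% and 14.2% of the family in EV replicates 1 to 3 and 4.43%, 7.10% and 6.68% in cell replicates 1 to 3. Its share was thus higher in each EV library than in any cell library, and rose by 1.31 on the log2 scale relative to the family (SE 0.21, edgeR BH-adjusted p = 0.000198). The median of all tested miRNAs in that fit was 1.46, and the level of let-7g-5p itself was not called. Against the other 9 members alone the difference was 1.48 on the log2 scale (exact permutation p = 0.1).

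let-7f-5p lost most on the same measure. It made up 13.8%, 14.1% and 12.9% of the family in EVs and 24.4%, 24.9% and 24.6% in cells. Relative to the family it fell by 0.86 (log2, SE 0.15; edgeR, BH-adjusted p = 0.000297). let-7a-5p held 5.80% ± 0.28 of the family in EVs and 10.5% ± 0.78 in cells (SD, n = 3 each), and let-7d-5p 1.78% ± 0.12 in EVs and 3.04% ± 0.23 in cells. They fell by 0.86 (SE 0.17, edgeR BH-adjusted p = 0.000994) and 0.77 (SE 0.21, edgeR BH-adjusted p = 0.0061) relative to the family. let-7e-5p was a minor member in both, with 0.521% ± 0.0588 in EVs and 1.32% ± 0.17 in cells, and fell by 1.34 relative to the family (SE 0.24, edgeR BH-adjusted p = 0.000416).

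let-7c-5p and let-7i-5p were not called relative to the family, although their shares did not overlap. let-7c-5p held 26.4% ± 0.33 of it in EVs and 24.4% ± 0.96 in cells, and let-7i-5p 12.9% ± 0.11 in EVs and 11.7% ± 1.13 in cells (SD, n = 3 each). Their changes relative to the family were 0.12 (SE 0.14, edgeR BH-adjusted p = 0.461) and 0.14 (SE 0.16, edgeR BH-adjusted p = 0.462). miR-98-5p, at 0.834% ± 0.0572 in EVs and 1.10% ± 0.186 in cells, was not called (-0.40, SE 0.24, edgeR BH-adjusted p = 0.142). let-7b-5p held 22.03%, 22.8% and 24.5% of the family in EVs and 19.0%, 16.4% and 16.1% in cells. It rose by 0.43 relative to the family (SE 0.15, edgeR BH-adjusted p = 0.0254). This call was lost with a replicate block (0.43, edgeR BH-adjusted p = 0.0735), with DESeq2 (0.43, BH-adjusted p = 0.084), without a filter (0.43, edgeR BH-adjusted p = 0.133), and without EVs replicate 1 (0.46, edgeR BH-adjusted p = 0.0538), Cells replicate 2 (0.40, 0.104) or Cells replicate 3 (0.39, 0.116). let-7k was called higher relative to the family (1.41, SE 0.57, edgeR BH-adjusted p = 0.0427) on the few reads given above, and not with DESeq2 (1.43, BH-adjusted p = 0.0502), without Cells replicate 2 (1.06, edgeR BH-adjusted p = 0.119) or Cells replicate 3 (1.07, 0.155), while without Cells replicate 1 it stood at 2.52.

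The order of the members changed accordingly. In all 3 EV libraries let-7c-5p, let-7b-5p and let-7g-5p were the most abundant members, in that order. In cells the 3 most abundant were let-7f-5p, let-7c-5p and let-7b-5p, with let-7f-5p ahead of let-7c-5p in replicates 2 and 3 and behind it in replicate 1. let-7c-5p and let-7f-5p did not differ in cells beyond the spread of let-7c-5p, at 52133 ± 2826 and 52609 ± 569 CPM (SD, n = 3). In EVs let-7c-5p and let-7b-5p stood at 29884 ± 5838 and 26277 ± 6230 CPM, and let-7g-5p, let-7f-5p and let-7i-5p at 16848 ± 2286, 15243 ± 2017 and 14574 ± 2777 CPM. Within each of these sets, neighbours lay closer than their SDs, although let-7c-5p exceeded let-7b-5p within each EV library. Levels were not scaled by length, and 9 of the members share a length. The order also rests on how reads were placed between near-identical members, which is not given in the sources used here.

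**Figure D3:**
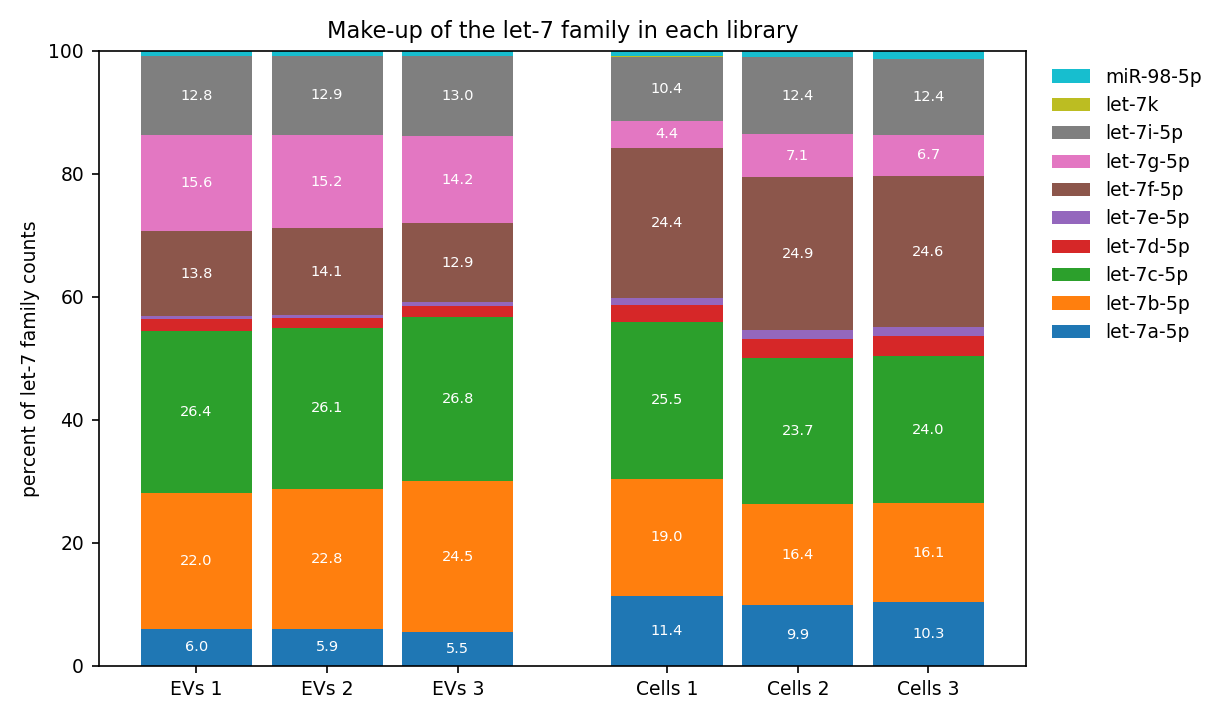
Share of each guide strand in the let-7 family total (y axis, percent) for each of the 3 EV and 3 cell libraries. let-7g-5p (pink) takes 14.2% to 15.6% in EVs and 4.4% to 7.1% in cells, while let-7f-5p (brown) takes 12.9% to 14.1% in EVs and 24.4% to 24.9% in cells.

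Several members are transcribed together with each other or with miR-99, miR-100 and miR-125 miRNAs, so the members were also grouped by genomic cluster. miR-125 miRNAs share their seed with lin-4, the other founding miRNA of the worm, and miR-99 and miR-100 are close relatives that target mTOR. Positions are those of the RefSeq hairpins in GRCm38.p6, since the count files carry none and were made on another build, and gene annotations are from GENCODE M21. Because partners can come from a shared primary transcript, their ratio within a library was compared, which no scaling affects. Among all 56280 pairs of tested miRNAs the ratio had no overlap between EVs and cells for 59.3%.

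On chromosome 13 the hairpins let-7d (chr13:48536012-48536114), let-7f-1 (chr13:48537829-48537917) and let-7a-1 (chr13:48538179-48538272) lie on the minus strand within exons of a lincRNA of that strand. The ratios among their guide strands differed little: the log2 ratio of let-7a-5p to let-7f-5p was -1.23 ± 0.02 in EVs and -1.23 ± 0.12 in cells, that of let-7a-5p to let-7d-5p 1.71 ± 0.11 in EVs and 1.79 ± 0.21 in cells, and that of let-7d-5p to let-7f-5p -2.93 ± 0.13 in EVs and -3.02 ± 0.10 in cells (SD, n = 3 each). The differences of 0.0035, -0.08 and 0.09 lay within the spread between replicates (exact permutation p = 1, 0.6 and 0.5), and the groups overlapped for each. Together the 3 strands made up 21.2% ± 0.91 of the family in EVs and 38.2% ± 0.31 in cells.

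On chromosome 9, let-7a-2 (chr9:41536716-41536811, plus strand) lies between miR-100 and miR-125b-1. miR-100-5p had 2821, 3149 and 3337 CPM in EVs and 9232, 8045 and 8366 CPM in cells. It fell by 1.94 (log2, SE 0.20; edgeR, BH-adjusted p = 6.74e-05), with no overlap. The log2 ratio of let-7a-5p to miR-100-5p was 1.06 ± 0.17 in EVs and 1.39 ± 0.03 in cells (difference -0.33, exact permutation p = 0.1, BH-adjusted over the 11 pairs 0.275). miR-125b-5p had 9251, 12426 and 9397 CPM in EVs and 11659, 32243 and 23384 CPM in cells, so that the groups overlapped, with cell replicate 1 below EV replicate 2. It fell by 1.53 (SE 0.30, edgeR BH-adjusted p = 0.00243). The log2 ratio of let-7a-5p to miR-125b-5p overlapped between the groups (difference -0.78, exact permutation p = 0.3, and -0.30 without Cells replicate 1).

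let-7c-2 (chr15:85706603-85706697) and let-7b (chr15:85707319-85707403) lie on the plus strand of chromosome 15 in exons of the long non-coding gene Lncppara. let-7b-5p stayed below let-7c-5p in every library and came closer to it in EVs: the log2 ratio of let-7b-5p to let-7c-5p was -0.26, -0.19 and -0.12 in EVs and -0.42, -0.53 and -0.58 in cells. The difference was 0.32 with no overlap (exact permutation p = 0.1, BH-adjusted 0.275). The other copy, let-7c-1 (chr16:77599657-77599750, plus strand), lies with miR-99a in an intron of Mir99ahg. miR-125b-2 lies 46523 bases after it. miR-99a-5p had 10107, 11639 and 10791 CPM in EVs and 14130, 13309 and 15413 CPM in cells, and fell by 0.86 (log2, SE 0.18; edgeR, BH-adjusted p = 0.003), or by 0.40 on library size alone (edgeR, BH-adjusted p = 0.0419). The log2 ratio of let-7c-5p to miR-99a-5p was 1.45 ± 0.32 in EVs and 1.87 ± 0.14 in cells, with an overlap (difference -0.42, exact permutation p = 0.2, and -0.26 without EVs replicate 2). That to miR-125b-5p was 1.52 ± 0.47 in EVs and 1.34 ± 0.82 in cells (exact permutation p = 0.8). The guide reads cannot be divided between the copies of let-7a, let-7c or let-7f, nor those of miR-125b-5p between miR-125b-1 and miR-125b-2.

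let-7e (chr17:17830352-17830444, plus strand) lies in an intron of Spaca6 between miR-99b, 95 bases before it, and miR-125a, 368 bases after it. miR-99b-5p had 4278, 5319 and 4688 CPM in EVs and 11025, 9156 and 9760 CPM in cells. It fell by 1.54 (log2, SE 0.21; edgeR, BH-adjusted p = 0.000348), against 2.71 for let-7e-5p. The log2 ratio of let-7e-5p to miR-99b-5p was -2.92, -3.58 and -2.59 in EVs and -2.17, -1.62 and -1.69 in cells, a difference of -1.20 with no overlap (exact permutation p = 0.1, BH-adjusted 0.275). miR-125a-5p had 3132, 4131 and 3305 CPM in EVs and 4072, 13837 and 9132 CPM in cells, and fell by 1.77 (SE 0.35, edgeR BH-adjusted p = 0.00243). Its groups overlapped, with cell replicate 1 below EV replicate 2. The log2 ratio of let-7e-5p to miR-125a-5p was -2.47, -3.22 and -2.09 in EVs and -0.73, -2.21 and -1.60 in cells. The difference was -1.08 with an overlap, as cell replicate 2 lay below EV replicate 3 (exact permutation p = 0.2), and it was -0.69 without Cells replicate 1.

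On the X chromosome, let-7f-2 (chrX:151912346-151912428) and miR-98 (chrX:151913214-151913321) both lie on the plus strand in introns of Huwe1. The log2 ratio of let-7f-5p to miR-98-5p was 4.03 ± 0.13 in EVs and 4.49 ± 0.23 in cells, a difference of -0.47 with no overlap (exact permutation p = 0.1, BH-adjusted 0.275). let-7g (chr9:106178840-106178927, plus strand, in an intron of Wdr82) and let-7i (chr10:122985640-122985724, minus strand) have none of these partners within 50000 bases, where the RefSeq gene table lists miR-135a-1 beside let-7g and no other miRNA gene for either. let-7g-5p and let-7i-5p together made up 27.9% ± 0.66 of the family in EVs and 17.8% ± 2.56 in cells. Of the 5 partner guide strands, 5 fell and 0 rose, with a median log2 fold change of -1.54, where 28.9% of all tested miRNAs fell and 28.6% rose. The CPM of miR-125a-5p and miR-125b-5p overlapped between EVs and cells. Over the 11 pairs, 4 ratios had no overlap, beside 59.3% of all pairs of tested miRNAs. None of the 11 can pass the test in this design.

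**Figure D4:**
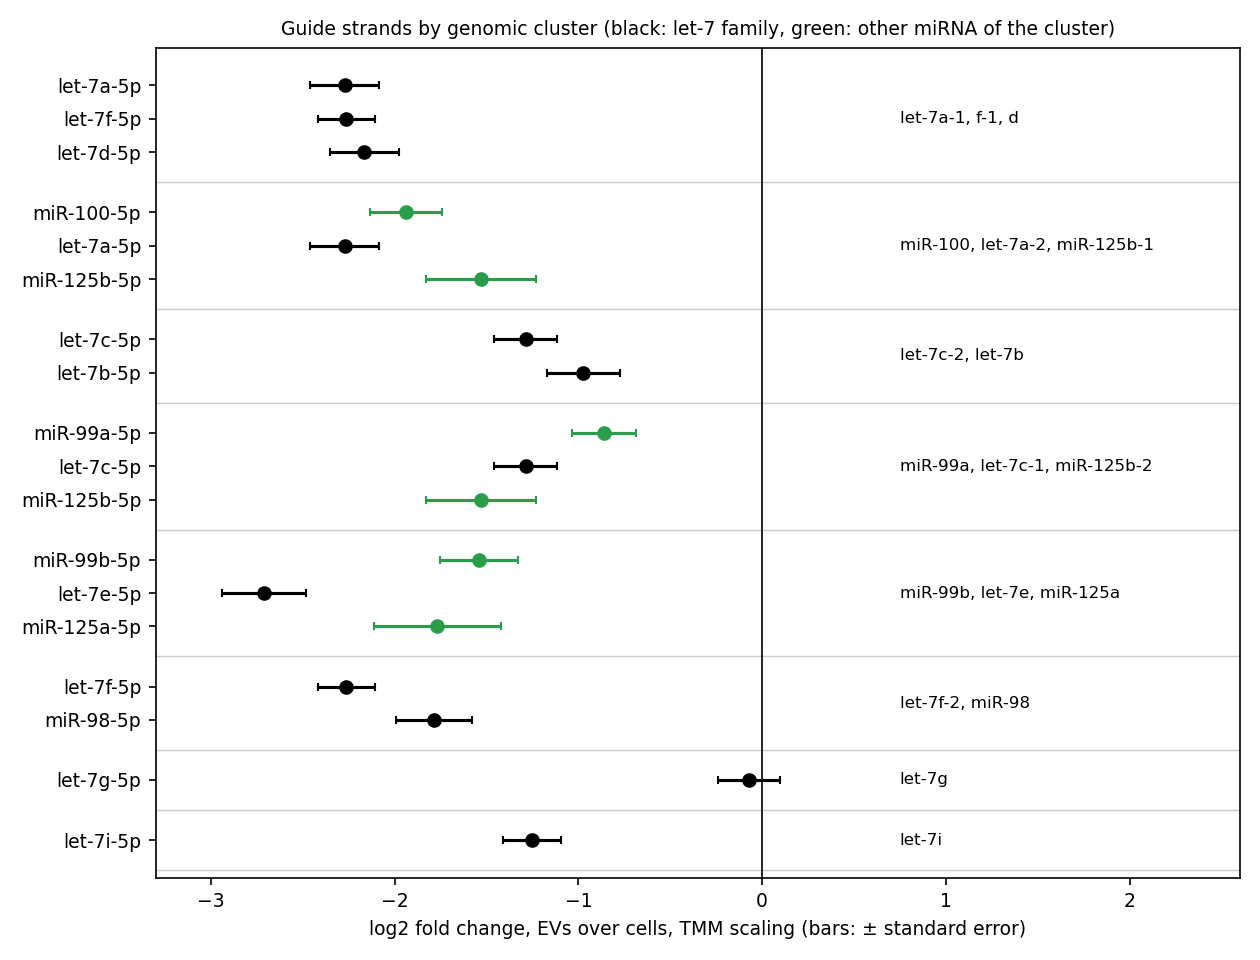
log2 fold change of EVs over cells with TMM scaling (x axis, bars are standard errors) for guide strands grouped by genomic cluster, with let-7 members in black and their miR-99, miR-100 and miR-125 partners in green. Members made at several loci appear under each. The guides of the chromosome 13 cluster lie together at -2.27 to -2.16, and let-7e-5p lies left of both its partners.

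The passenger strands of the same hairpins gave other counts than the guides. Of 12 passenger rows 7 passed the filter, with 1 called higher, 1 lower and 5 not called (median log2 fold change 0.72), beside 28.6% higher and 28.9% lower over all tested miRNAs, and a replicate block ended both calls. The number higher was 0 when EVs replicate 1 or 2 or Cells replicate 2 or 3 was left out, and the number lower was 0 without any single library other than Cells replicate 1. let-7a-1-3p had 357, 488 and 331 CPM in EVs and 160, 78.8 and 188 CPM in cells (log2 fold change 0.96, SE 0.34, edgeR BH-adjusted p = 0.0348, and 0.0701 with the block). let-7f-1-3p, with overlapping groups, averaged 40.3 ± 3.88 CPM over EVs and 75.1 ± 48.4 CPM over cells (-1.35, edgeR BH-adjusted p = 0.0356, and 0.0546 with the block). When library size alone was used, 5 rose and 0 fell, beside 44% higher and 17.9% lower over all tested miRNAs. let-7c-2-3p had 926, 1144 and 692 CPM in EVs and 461, 355 and 395 CPM in cells (0.72, edgeR BH-adjusted p = 0.0517). Of the other tested passengers, let-7b-3p had a log2 fold change of -0.52, let-7f-2-3p of 0.87 and miR-98-3p of 1.17 (edgeR BH-adjusted p = 0.174, 0.122 and 0.0998). The RefSeq sequences of let-7c-2-3p and let-7a-1-3p are the same, printed here with let-7d-3p, so the reads of that pair cannot be told apart.
let-7a-1-3p: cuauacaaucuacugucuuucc
let-7c-2-3p: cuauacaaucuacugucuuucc
let-7d-3p: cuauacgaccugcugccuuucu

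let-7d was the hairpin whose more abundant arm differed between EVs and cells. The guide let-7d-5p had 862, 507 and 1663 reads in EVs and 942, 848 and 1365 reads in cells, and the passenger let-7d-3p had 1500, 1417 and 1739 reads in EVs and 430, 137 and 301 reads in cells. The passenger strand thus outnumbered the guide in each EV library, and the guide outnumbered the passenger in each cell library. The log2 ratio of guide to passenger was -0.80, -1.48 and -0.06 in EVs and 1.13, 2.63 and 2.18 in cells, a difference of -2.76 (exact permutation p = 0.1, BH-adjusted over 9 hairpin groups 0.15). By itself let-7d-3p was not called with TMM scaling (0.49, SE 0.40, edgeR BH-adjusted p = 0.335) but was called higher on library size alone (0.98, edgeR BH-adjusted p = 0.0279).

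The guide to passenger ratio was lower in every EV library than in any cell library for 6 of 9 hairpin groups, those of let-7a, let-7c, let-7d, let-7e, let-7f and miR-98. Among the 165 hairpins whose arms summed to 10 or more counts per library, the ratio of the more to the less abundant arm behaved so for 11.5%, and the opposite way for 33.3%. Only arms of the same name were paired there, so let-7a, let-7c and let-7f, with passenger rows named by copy, are not among the 165. Of the groups that can be set beside that share, let-7d, let-7e and miR-98 were lower in EVs, while let-7b, let-7g and let-7i overlapped. The groups of let-7a and let-7c are not separate observations, as let-7a-1-3p and let-7c-2-3p have the same sequence. For let-7a the mean log2 ratio was 4.05 ± 0.47 in EVs and 7.29 ± 0.52 in cells, for let-7c 5.02 ± 0.64 in EVs and 6.94 ± 0.16 in cells, and for let-7f 6.43 ± 0.34 in EVs and 8.78 ± 0.70 in cells (SD, n = 3 each). With let-7a and let-7c summed, a setting added after the shared passenger sequence was seen, the ratio was 4.79 ± 0.59 in EVs and 7.04 ± 0.23 in cells. Those of let-7e, let-7g, let-7i and miR-98 rested on 1 to 5 passenger reads in a cell library. Groups overlapped for let-7b (7.68 ± 0.51 in EVs and 8.16 ± 0.27 in cells), let-7g (9.26 ± 0.41 and 9.74 ± 0.87) and let-7i (9.83 ± 0.70 and 10.5 ± 0.66), with exact permutation p of 0.3, 0.5 and 0.3.

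**Figure D5:**
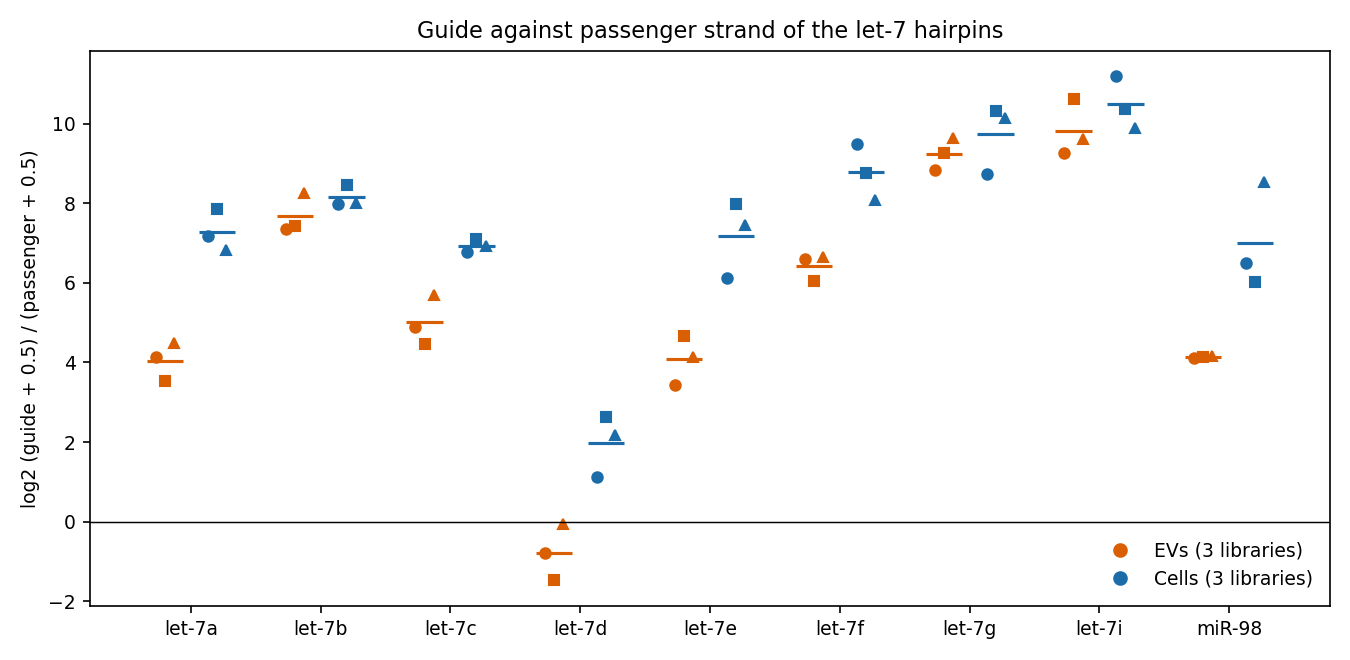
log2 ratio of guide to passenger counts (y axis) for each let-7 hairpin group in the 3 EV libraries (orange, left) and the 3 cell libraries (blue, right), with copies of a guide strand summed. Short lines are means and symbols give the replicate (circle 1, square 2, triangle 3). let-7d lies below 0 in all 3 EV libraries and above 0 in all 3 cell libraries.

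let-7j, a further let-7 row that is not a member and that has another base at the end of the seed, was also lower in EVs. It had 443, 462 and 641 CPM in EVs and 711, 843 and 988 CPM in cells, with no overlap, and fell by 1.18 (log2, SE 0.21; edgeR, BH-adjusted p = 0.00166), or by 0.71 on library size alone (edgeR, BH-adjusted p = 0.0256). Relative to let-7a-5p it carries G8U and the 4 substitutions of let-7i-5p, and it is longer at its 3′ end. Over the 22 bases compared it differs from let-7i-5p by 1 base, so reads could have moved between these rows. let-7j held 107 to 442 reads per library, against 3347 to 12226 for let-7i-5p, and such an exchange was not tested.
let-7j: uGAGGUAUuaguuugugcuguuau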

How the data were processed

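Per the submitters' processing notes, the authors' tools were featureCounts 1.4.6-p4 of Subread, Bowtie 0.12.8, cutadapt 1.7.1 and bcl2fastq 1.8.4, with mouse build NCBIM37 (mm9). The sources used here do not give their settings, the strand, multi-mapping or duplicate rules, or the annotation release. The deposited values are raw counts per mature miRNA, 1 table per sample. EVs were compared with cells by edgeR 4.0.16 (R 4.3.3; glmQLFit, glmQLFTest, two-sided), with TMM, filterByExpr at a minimum count of 10, group as the only term and Benjamini-Hochberg (BH) adjustment over the 336 miRNAs kept. CPM uses the total count without the TMM factor. The biological coefficient of variation was 23.8%. Standard errors come from the coefficient and the F statistic. Single values used exact permutation tests (SciPy 1.17.1), and ratios a pseudocount of 0.5. DESeq2 1.42.0, other scalings, thinning to 126910 counts and omission of each library were alternatives.

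Groups and replicate numbers come from the labels. Deviations from the group mean correlated weakly between EV and cell libraries of the same number (correlations over 336 miRNAs 0.115, 0.106 and 0.256, with other pairs at -0.148 to 0.021). This was not tested, and the labels do not say that a number marks a shared culture. The block result is given where it changes a call. Within groups, chi-square was 7.73 to 37.5 times its degrees of freedom, so no pair of libraries agreed within sampling noise. Floors of 3 reads cover counting error only. Neighbouring miRNA genes within 50000 bases are from the RefSeq gene table (GRCm38.p6). RefSeq mature sequences matched 1622 of 1906 rows and all 10 members. The members, related lists and tests were chosen with earlier results of these data known. All members and the tested related miRNAs are named, except that the partner passenger strands are given by counts. The 5 miRNAs most like the family were chosen by the distance of centred log2 CPM (prior count 2) among those with a mean of at least 100 CPM.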

Additional observations from a re-analysis of the deposited data

How the results depend on the processing

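The 8 calls of lower guide strands and the fall of the family sum held under every scaling, filter, tool, thinning, replicate block and omission of a library that was run, with the sum at -1.56 to -0.92, the end nearest 0 with library size only. let-7g-5p, never called, stood at 0.38 with library size only, 0.070 without a filter and -0.20 to 0.0072 when a library was left out. let-7k, never called, stood at -0.013 with RLE size factors, -0.073 with TMM computed without let-7 and miR-9-5p, -0.046 with DESeq2 and -0.37 to 1.26 when a cell library was left out, and it was not tested after thinning or without any EV library. Relative to the family total, the 4 lower members held throughout, while 1 member was higher with DESeq2 and 1 to 3 when a library was left out. With the replicate block the family sum stood at -1.44, and the block ended only the calls of let-7b-5p relative to the family and of let-7a-1-3p and let-7f-1-3p. Of the let-7 passenger strands, 0 were lower with library size only, the block or thinning, and 0 to 1 when a library was left out. The number higher was 5 with library size only, 0 with TMM computed without let-7 and miR-9-5p, 3 without a filter, 0 with the block, 2 after thinning and 0 to 3 when a library was left out. Of partner passenger strands, where 0 of 4 tested were higher and 1 lower, 1 was higher with library size only and 0 to 1 when a library was left out. Leaving out a library gave ratio differences of -0.15 to 0.039 for let-7a-5p to let-7d-5p, -0.048 to 0.070 for let-7a-5p to let-7f-5p -0.16 to 0.65 for let-7c-5p to miR-125b-5p, -1.15 to -0.30 for let-7a-5p to miR-125b-5p, -1.43 to -0.69 for let-7e-5p to miR-125a-5p and -0.58 to -0.26 for let-7c-5p to miR-99a-5p, and the guide to passenger difference of let-7g was 0.071 with a pseudocount of 2. The cause of these changes was not tested. Depth limits let-7k and the rare passenger strands in cells.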

Other observations

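Outside the family, the 5 miRNAs whose levels over the 6 libraries were most like those of the family sum were miR-151-5p, miR-125b-1-3p, miR-28a-5p, miR-26a-5p and miR-425-5p, at distances of 0.29 to 0.46 between centred log2 CPM profiles among 247 candidates. For comparison, let-7c-5p lay at 0.16 and let-7i-5p at 0.27 from the sum they belong to, and let-7g-5p at 1.72. miR-151-5p had 439, 392 and 635 CPM in EVs and 1101, 1064 and 978 CPM in cells, and fell by 1.58 (log2, SE 0.23; edgeR, BH-adjusted p = 0.000493). miR-26a-5p, an abundant miRNA of many tissues, had 18411, 20904 and 22871 CPM in EVs and 30879, 39611 and 35719 CPM in cells. miR-125b-1-3p is the passenger strand from the hairpin near let-7a-2, and had 188, 172 and 196 CPM in EVs and 320, 362 and 371 CPM in cells (-1.39, edgeR BH-adjusted p = 0.000357).

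The members that fell most share the end of their strand, a pattern seen only after the values were known and given without a test. The 4 that end in AUAGUU, let-7a-5p, let-7d-5p, let-7e-5p and let-7f-5p, had log2 fold changes of -2.71 to -2.16, and the 6 that do not end so had -1.79 to 0.04. The split depends on the letters chosen, as let-7g-5p ends in ACAGUU, shares the final AGUU and stood at -0.07. let-7a-5p, let-7d-5p and let-7f-5p are also the guides of the chromosome 13 cluster, so for them ending and cluster cannot be told apart. The 4 made up 21.7% ± 0.87 of the family in EVs and 39.5% ± 0.17 in cells (SD, n = 3 each). Of the 297 tested miRNAs with a RefSeq sequence, 1.35% end in these letters, all of them these members, so no other miRNA could be set beside them.

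GGAG, a motif reported to bind hnRNPA2B1 in the loading of vesicles, occurs in 2 members, let-7e-5p and let-7k, searched on the mature strand as given. let-7e-5p was the most reduced member and let-7k was not called. Of the 297 tested miRNAs with a sequence, 8.75% hold GGAG, with a median log2 fold change of -0.03 against 0.06 for those that do not. Outside the mature strands, GGAG lies in 9 of 13 hairpins of the members, where it is the known binding motif of LIN28, and in 23.7% of 1005 RefSeq hairpins. The 4 let-7 hairpins without it are those of let-7b, let-7c-2, miR-98 and let-7k.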
